A study of Mustela putorius furo and Mus musculus with 4 samples.

Results

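Hyaluronan is a long sugar polymer of glucuronic acid and N-acetylglucosamine that forms the backbone of the brain's extracellular matrix. Membrane enzymes, the hyaluronan synthases, build it from nucleotide sugars and push the chain out of the cell, and other enzymes cut it at the cell surface and in lysosomes. Receptors such as CD44 tie it to the cytoskeleton, and link proteins fasten proteoglycans to it, as in the nets around neurons. The 10 genes described here were chosen by symbol to cover these steps. They are the synthases Has1, Has2 and Has3, the breakdown genes Cemip, Cemip2, Hyal1 and Hyal2, and the binding genes Cd44, Hapln1 and Hmmr. They were compared between ferret and mouse astrocytes against 13373 gene symbols shared by both species. Of the 10 genes, 9 had a value in both species. Hyal1 was read in the mouse libraries alone, and its ferret level was not analysed here.

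Cultured astrocytes were compared in 2 ferret and 2 mouse libraries. The ferret cells came from the cerebral cortex of pigmented sable ferrets on postnatal day 1, and the mouse cells from the cortex of wild-type ICR mice on postnatal days 1 to 3. Both were grown for 14 days as mixed glia in medium holding 10% serum, shaken, replated and finally kept in serum-free medium with heparin-binding EGF-like growth factor before RNA was taken. In the study's protocol a ferret pup was spread over several flasks and several mouse pups were pooled in each flask, and no source used here says whether the duplicates were separate cultures, so p-values measure the spread between these libraries, which may be technical. Values are FPKM, fragments scaled to exon length and to the mapped fragments of the library, as deposited. The shared symbols had a total of 227391 and 236543 FPKM in the ferret duplicates, against 300465 and 308121 in the mouse duplicates. An equal FPKM is therefore a larger share of the shared genes in the ferret. Species, gene annotation and culture cannot be told apart in this design. The astrocyte label was checked with 10 markers, which summed to 3554 and 3655 FPKM in the ferret, against 3106 and 3363 FPKM in the mouse libraries. Aldoc was the most abundant in the ferret, at 1660 FPKM, and Gfap in the mouse, at 1487 FPKM. Of the 10, 1 was called higher and 6 lower in ferret astrocytes, at a limma p adjusted over all genes under 0.05 and a log2 difference above 1 in size, beside 13.1% and 30.1% of all genes tested, and 2 of the lower calls passed the filter on low values through the mouse level alone. This split depended on the scaling. When every library was given the same sum over shared symbols, Slc1a3 (-0.77) and Gja1 (-0.95) fell under that size and Aldoc (1.17) rose above it. A pair of defining markers was near 0 in ferret astrocytes, with mean levels of 0.155 FPKM for Slc1a2, a glutamate transporter, and 0.0821 FPKM for Gjb6, a connexin. In mouse astrocytes Slc1a2 averaged 49.4 FPKM, whereas Gjb6 was low there as well, at 1.90 FPKM.

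The reads of related hyaluronan genes have to be told apart by sequence, so the closest stretches of the mouse genes are shown first. In the mouse (GENCODE M21 transcripts, GRCm38) the coding sequences of Has2 and Has3 were identical at 68.1% of aligned bases, those of Has1 and Has3 at 67.4% and those of Has1 and Has2 at 62.0%. Cemip and Cemip2 were identical at 59.4% of aligned bases. The longest run of bases shared by Has2 and Has3 was 23, by Has1 and Has2 it was 17, and by Cemip and Cemip2 it was 13. The 4 lines below give the coding strand around the longest runs, with the shared run in capitals. The Has2 and Has3 stretch starts at coding bases 688 and 700, counted from the start codon, and crosses a splice junction. The stretch of Has1 with Has2 lies within an exon, at chr17:17844180-17844232 and chr15:56668212-56668264 of GRCm38, both on the minus strand.
Has2 (with Has3): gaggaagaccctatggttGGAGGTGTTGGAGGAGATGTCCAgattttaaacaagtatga
Has3 (with Has2): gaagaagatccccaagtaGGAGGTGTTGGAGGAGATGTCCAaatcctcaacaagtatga
Has1 (with Has2): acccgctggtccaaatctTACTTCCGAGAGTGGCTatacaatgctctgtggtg
Has2 (with Has1): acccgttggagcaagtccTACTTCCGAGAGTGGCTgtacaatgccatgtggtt

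The hyaluronan genes lay between percentile 9.22 and 93.2 of the shared genes in the ferret and between 19.1 and 97.2 in the mouse, and the 2 species ordered them differently. The libraries are bulk RNA, in which fewer cells of a type and less RNA per cell cannot be told apart. In ferret astrocytes Cd44 was highest, followed by Hyal2, Cemip2, Hmmr, Has3, Has2, Hapln1, Cemip and Has1. In mouse astrocytes Cemip was highest, followed by Cd44, Hyal1, Hyal2, Hapln1, Hmmr, Cemip2, Has2, Has1 and Has3. Neighbours in the mouse order overlapped between libraries for Hmmr with Cemip2 and for Has1 with Has3, whereas no neighbours in the ferret order overlapped. Among all shared genes ranked by mean level, Cemip stood at percentile 22.2 in ferret and 97.2 in mouse astrocytes, and Cemip2 at percentile 65.9 and 37.4. Cd44 stood at percentile 93.2 and 95.6. These percentiles depend on no scaling between the libraries.

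**Figure D1:**
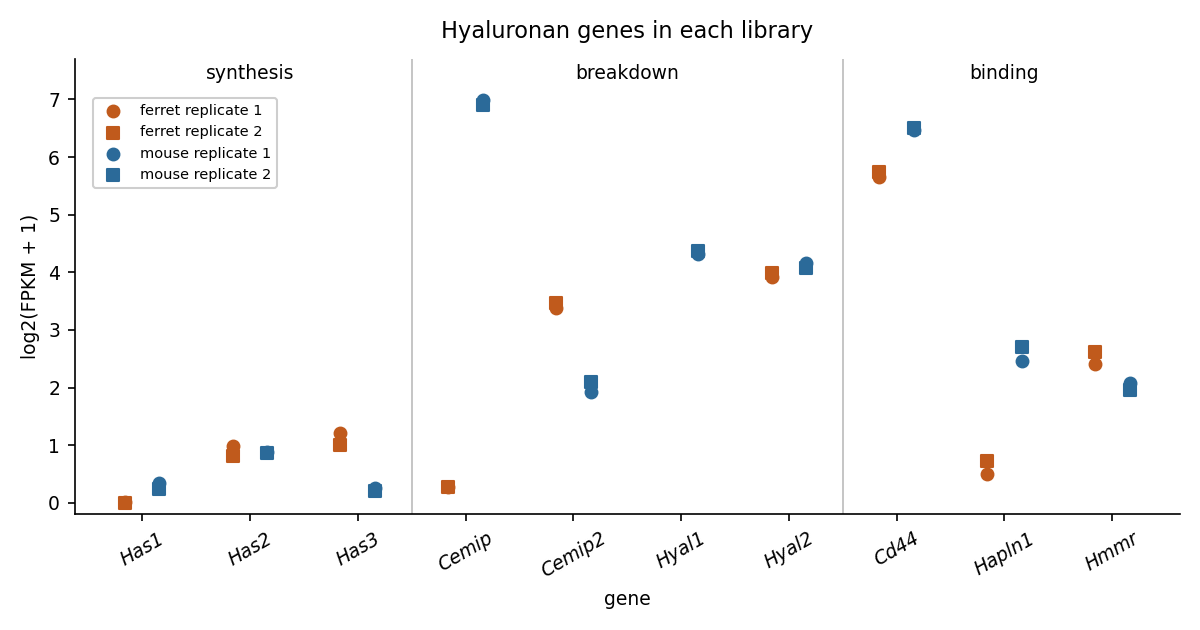
Level of each hyaluronan gene as log2(FPKM + 1) on the vertical axis, with a point for each of the 2 ferret (orange) and 2 mouse (blue) libraries; genes are grouped by role, and Hyal1 is shown for the mouse alone. The points of a species lie close together, Cemip is near the top in both mouse libraries and near 0 in both ferret libraries, and Cemip2 and Has3 are higher in both ferret libraries.

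The synthases were expressed at low levels in both species, and they differed in which enzyme led. Has2, the synthase best known from development, had 0.977 and 0.757 FPKM in the ferret libraries, against 0.841 and 0.816 FPKM in the mouse libraries. The mouse values lay inside the ferret range, with a difference of 0.03 on the log2(FPKM + 1) scale (ferret minus mouse, standard error 0.070), so a difference in Has2 was not detectable with FPKM as deposited. It was 0.21 when every library was given the same sum over shared symbols, and 0.37 when quantile normalization was used. No direction is therefore given for Has2. Has3, which makes shorter chains, had 1.32 and 0.997 FPKM in the ferret and 0.196 and 0.155 FPKM in the mouse libraries. The ferret values exceeded the mouse values in both duplicates, by a ratio of means of 6.61 and a log2 difference of 0.87 (standard error 0.089). The mouse values are so low that this ratio may rest on very few fragments, and its size is uncertain. The log2 difference ranged from 0.77 to 2.18 over the other processing settings. Has1 had 0.0144 FPKM in the first ferret library and is listed at 0 in the other, and had 0.268 and 0.176 FPKM in the mouse libraries. At such values a difference may rest on very few fragments, and no fold is given for it.

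As a share of the summed FPKM of the 3 synthases, Has3 made up 57.1% and 56.8% in the ferret libraries, against 15.0% and 13.5% in the mouse libraries. Has2 made up 42.3% and 43.2% in the ferret and 64.5% and 71.2% in the mouse libraries. Has3 was thus the leading synthase in both ferret libraries and Has2 in both mouse libraries. Such shares do not change when a library is multiplied by a factor, but they do depend on the gene models of each species. The sum of the 3 synthases was 2.31 and 1.75 FPKM in the ferret and 1.31 and 1.15 FPKM in the mouse libraries. Mouse Has2 (chr15:56665627-56694539, minus strand) overlaps the antisense RNA Has2os, which had 0.251 and 0.198 FPKM. The end of mouse Has3 (chr8:106870242-106884566, plus strand) overlaps Chtf8 on the other strand, which had 32.3 and 33.6 FPKM. Whether the counting used strand is not given in the sources used here.

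Among the breakdown genes, Cemip and Cemip2 stood in opposite order in the 2 species. Cemip encodes a hyaluronan-binding protein needed for hyaluronan depolymerization in skin fibroblasts and other cells. It had 0.211 and 0.205 FPKM in the ferret libraries, against 127 and 119 FPKM in the mouse libraries. The groups were far apart, with a ratio of means of 591 in favour of the mouse and a log2 difference of -6.68 (standard error 0.046). Cemip2, also called Tmem2, encodes a related protein anchored in the plasma membrane that has been described as a hyaluronidase of the cell surface. It had 9.38 and 10.1 FPKM in the ferret and 2.80 and 3.26 FPKM in the mouse libraries. Neither ferret value came near the mouse values, with a ratio of means of 3.22 and a log2 difference of 1.42 (standard error 0.086).

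Of the summed FPKM of these 2 genes, Cemip2 made up 97.8% and 98.0% in the ferret libraries, and Cemip made up 97.8% and 97.3% in the mouse libraries. The sum itself was 9.60 and 10.3 FPKM in the ferret and 130 and 122 FPKM in the mouse libraries. Cemip lies at chr7:83932857-84086502 on the minus strand, with 28 exonic regions, and no annotated gene overlaps it. Cemip2 lies at chr19:21778342-21858360 on the plus strand, with 25 exonic regions. By root mean square distance between the 4 log2(FPKM + 1) values, the genes closest to Cemip among 10203 were Cyp26b1, Tmem176a and C1qb, at distances of 0.20, 0.20 and 0.27. Cyp26b1 encodes an enzyme that breaks down retinoic acid, and C1qb, a complement subunit, is also one of the microglial markers used to check the cultures. With 2 libraries per species, such closeness shows a similar level in each species and does not place genes in the same cells.

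**Figure D2:**
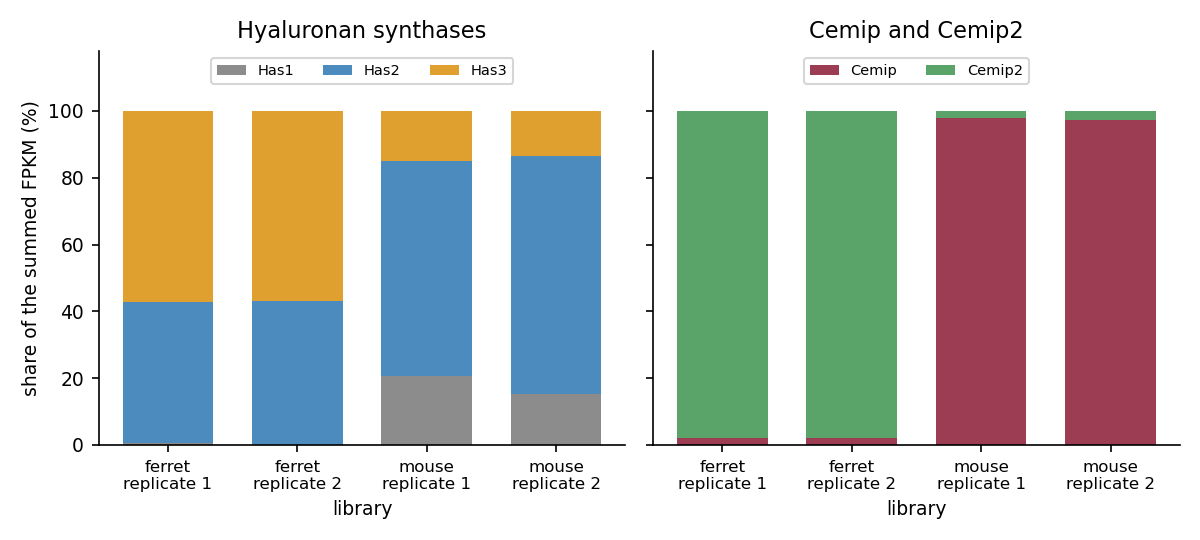
Share of the summed FPKM, in percent, taken by each synthase (left) and by Cemip and Cemip2 (right) in each of the 4 libraries. Has3 takes 57.1% and 56.8% in the ferret and 15.0% and 13.5% in the mouse libraries, and Cemip2 and Cemip exchange places between the species.

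Hyal2 and Hyal1 encode the hyaluronidases of most somatic tissues, the first anchored at the cell surface and the second in lysosomes. Hyal2 had 14.1 and 14.8 FPKM in the ferret and 16.9 and 15.8 FPKM in the mouse libraries. The libraries did not overlap, but the log2 difference was only -0.17 (standard error 0.050), and it turned positive, to 0.20 when every library was given the same sum (over shared symbols) and to 0.23 when quantile normalization was used. No direction is therefore given for Hyal2. Hyal1 had 18.9 and 19.7 FPKM in the mouse libraries, a level just above that of Hyal2. Mouse Hyal1 (chr9:107576927-107581710, plus strand) overlaps Naa80 and Hyal3 on the same strand, so its reads cannot all be assigned to 1 gene with certainty. Naa80 had 18.4 and 17.7 FPKM and Hyal3 had 0.760 and 0.803 FPKM in the same libraries. Hyal2 (chr9:107567945-107572779) lies next to it and overlaps only Gm9917, an antisense RNA at 0.697 and 0.906 FPKM.

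Cd44, the main hyaluronan receptor of the cell surface, was abundant in both species. It had 49.4 and 52.3 FPKM in the ferret and 87.6 and 89.8 FPKM in the mouse libraries. The ferret libraries were lower, with a ratio of means of 0.573 and a log2 difference of -0.79 (standard error 0.041), which shrank to -0.41 with equal library sums. The mouse gene (chr2:102811141-102901665, minus strand) has 9 annotated transcripts over 19 exonic regions, because its variable exons are spliced in many combinations, and the deposited values give 1 level for the whole gene. Closest to Cd44 in their 4 values among 10203 genes were Psmc1, Phb and Acsl3, at distances of 0.04, 0.04 and 0.06. Closest to Has2 among 10204 genes were Kcnj13, Zbtb46 and Ccdc57, at distances of 0.08, 0.12 and 0.12.

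Hapln1 encodes the link protein that locks lectican proteoglycans to hyaluronan. It had 0.412 and 0.649 FPKM in the ferret and 4.54 and 5.51 FPKM in the mouse libraries. Both ferret libraries were lower, with a ratio of means of 9.47 in favour of the mouse and a log2 difference of -1.98 (standard error 0.13). Hmmr, also called Rhamm, encodes a hyaluronan-binding protein that also sits on the mitotic spindle. It had 4.34 and 5.12 FPKM in the ferret and 3.24 and 2.91 FPKM in the mouse libraries. Both ferret libraries were higher, by a ratio of means of 1.54 and a log2 difference of 0.49 (standard error 0.10).

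These differences were read against those of all genes. Across the 13373 shared symbols the median log2 difference was -0.11, and across the 10204 genes with a mean of at least 1 FPKM in a species it was -0.35. Giving all libraries the same sum moved the latter to -0.01. Relative to the median of the 10204 genes tested, Cemip was at -6.33, Hapln1 at -1.63, Cd44 at -0.44, Hyal2 at 0.18, Hmmr at 0.84, Has3 at 1.22 and Cemip2 at 1.77. Relative to the median of all shared symbols, Cd44 was at -0.68, Hyal2 at -0.06 and Hmmr at 0.60. The 9 genes had a median of -0.17, which was 0.20 after rescaling. The directions of Has3, Cemip, Cemip2, Cd44, Hapln1 and Hmmr held with FPKM as deposited and under the 3 other scalings, while Hyal2 changed sign.

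A gene was called when its limma p, adjusted by the Benjamini-Hochberg method, was under 0.05 and its log2 difference was above 1 in size, and 43.2% of the 10204 genes tested were called (13.1% higher and 30.1% lower in ferret astrocytes). Of the 10 hyaluronan genes, 7 passed the filter on low values and 3 were called, with Cemip2 higher and Cemip and Hapln1 lower in the ferret. Has1 and Has2 stayed under the filter and Hyal1 had no ferret value. Has3 passed it through its ferret level alone, and Cemip and Hapln1 through their mouse levels alone. With FPKM as deposited, the libraries of the 2 species did not overlap for 8 of 9 hyaluronan genes, 3 higher and 5 lower in the ferret. The 5 lower genes include Hyal2, whose sign turned with the scaling. Among all shared symbols, 86.1% did not overlap (33.2% higher and 52.9% lower). Both shares are near those of all genes, and since the 10 genes were chosen with earlier results of these data known, the counts describe them and test nothing.

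**Figure D3:**
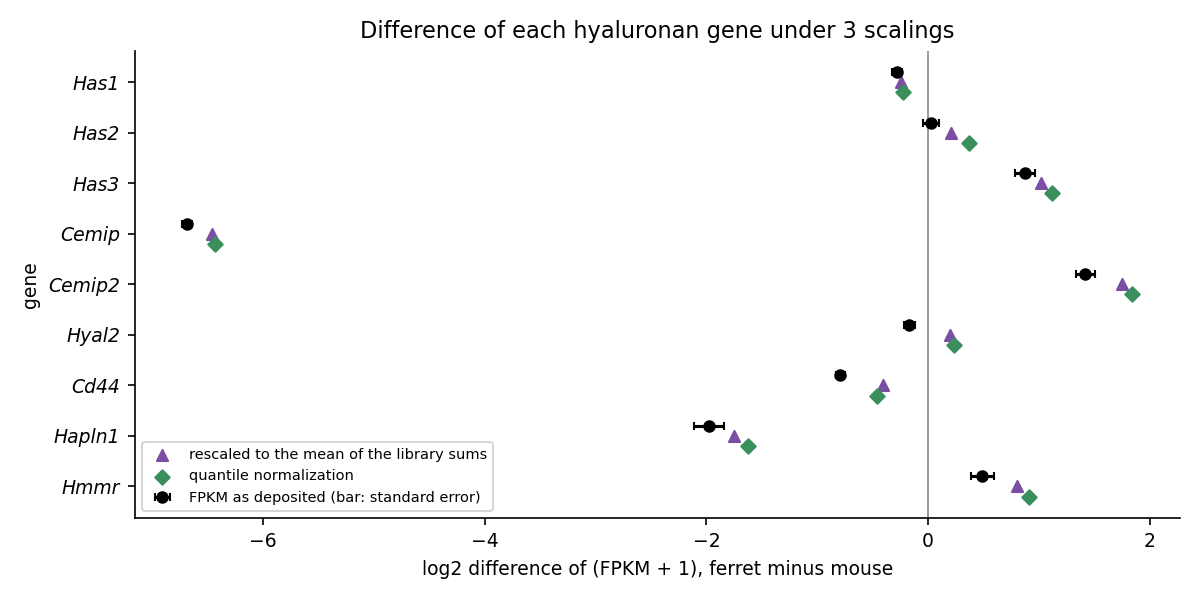
Difference of each hyaluronan gene between ferret and mouse astrocytes (horizontal axis, log2 of FPKM + 1, ferret minus mouse) with FPKM as deposited (black, bar for the standard error), once all libraries had the same sum (triangles) and after quantile normalization (diamonds). Cemip lies at -6.68 with FPKM as deposited, Cemip2 at 1.42, and Hyal2 lies on either side of 0 depending on the scaling.

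Other genes of the pathway were tested in the same fit, from a list of 42 that holds none of the 10 genes above. Of these, 41 had a value in both species and 31 passed the filter, of which 6 were called higher and 12 lower in ferret astrocytes, and 13 were not called, beside 13.1% higher and 30.1% lower over all genes tested. Stab1, Layn, Tlr2, Tlr4, Itih2 and Itih3 passed the filter through their mouse level alone, and Hyal3 and Acan through their ferret level alone. The median log2 difference was -0.55 for the 31 genes, beside -0.35 for all genes tested, and -0.19 for the 41 genes, beside -0.11 for all shared symbols. The split moved with the scaling: 9 were called higher and 9 lower once all libraries had the same sum, when Bcan, Ncan and Nf2 were no longer called lower and Gusb, Rdx and Uxs1 were called higher. Over all genes that scaling moved the calls from 1336 higher and 3069 lower to 1954 and 2215. Hyal4, Spam1 and Habp2 are listed at 0 in all 4 libraries, and the ferret level of Hexa was not analysed here.

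The 8 genes that supply the nucleotide sugars all passed the filter, with 2 called higher and 1 lower in the ferret, beside 13.1% and 30.1% of all genes. Pgm3, the phosphoglucomutase on the route to UDP-N-acetylglucosamine, had 114 and 113 FPKM in the ferret and 15.4 and 16.7 FPKM in the mouse libraries. Its log2 difference was 2.74 (standard error 0.062, limma p of 1.63e-10 after Benjamini-Hochberg adjustment), higher in 2 of 2 ferret libraries. Gfpt2, a glutamine-fructose-6-phosphate transaminase that starts this route, was called as well, at 32.7 and 35.6 FPKM in the ferret and a mean of 10.7 FPKM in the mouse libraries. Gnpnat1, the acetyltransferase of the same route, went the other way, with 3.37 and 2.73 FPKM in the ferret and 15.6 and 18.3 FPKM in the mouse libraries (log2 difference -2.15, standard error 0.10, limma adjusted p = 1.85e-08). The genes of this route therefore did not differ in a single direction.

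The remaining supply genes were not called. Ugdh, the dehydrogenase that makes UDP-glucuronic acid, averaged 43.6 ± 2.19 FPKM (SD, n = 2) in ferret and 60.6 ± 3.58 FPKM (SD, n = 2) in mouse astrocytes. Ugp2, which makes UDP-glucose, had a log2 difference of -0.67, Gfpt1 of 0.36 and Uap1, the pyrophosphorylase of the N-acetylglucosamine route, of 0.57. Uxs1, which turns UDP-glucuronic acid into UDP-xylose, had a log2 difference of 0.73. These genes lay between 15.1 and 130 FPKM in the mouse, above each of the 3 synthases.

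Of the breakdown list, Hyal3 was called, at 3.44 and 3.39 FPKM in the ferret and 0.760 and 0.803 FPKM in the mouse libraries. In the mouse it overlaps Naa80 on the same strand, which had 18.4 and 17.7 FPKM there and 3.43 and 2.95 FPKM in the ferret libraries, so the level of Hyal3 is uncertain. The lysosomal enzyme Gusb, which takes terminal glucuronic acid off hyaluronan fragments, was abundant in both species. It had 69.3 and 71.1 FPKM in the ferret and 42.8 and 42.7 FPKM in the mouse libraries, and was not called with FPKM as deposited.

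Of 8 receptor genes and partners, 6 passed the filter and 4 were called lower in ferret astrocytes, beside 30.1% of all genes. Those 4 passed through their mouse level alone, so they had to differ in this direction. Layn, which encodes the hyaluronan receptor layilin, had 0.457 and 0.555 FPKM in the ferret and 33.5 and 35.6 FPKM in the mouse libraries (log2 difference -4.56, standard error 0.076). Stab1, the scavenger receptor stabilin-1 of macrophages, had 0.830 and 0.978 FPKM in the ferret and 19.8 and 20.1 FPKM in the mouse libraries (log2 difference -3.46, standard error 0.076). Tlr4 and Tlr2, innate immune receptors that also respond to hyaluronan fragments, had log2 differences of -2.83 and -1.94. Chp1, a calcium-binding protein, had a log2 difference of -0.75 and was not called. Lyve1 and Stab2, receptors of lymphatic and sinusoidal endothelium, stayed under the filter in both species, and Lyve1 had 0.507 and 0.764 FPKM in the ferret, above 0.453 and 0.344 FPKM in the mouse libraries.

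Of 7 hyaluronan-binding matrix genes tested, 3 were called higher and 3 lower, beside 13.1% and 30.1% of all genes, and of the 3 lower calls only Vcan held under the 3 other scalings. Vcan, the lectican versican, had 5.05 and 5.71 FPKM in the ferret and 21.1 and 20.4 FPKM in the mouse libraries (log2 difference -1.77, standard error 0.075, limma adjusted p = 8.93e-09). The brain lecticans Bcan and Ncan had means of 24.1 and 76.2 FPKM in the ferret and 52.3 and 159 FPKM in the mouse, and were called lower with FPKM as deposited but under none of the 3 other scalings. Tnfaip6, which encodes TSG-6 and moves heavy chains onto hyaluronan, had 8.25 and 7.82 FPKM in the ferret and 0.999 and 1.29 FPKM in the mouse libraries (log2 difference 2.08, standard error 0.088, limma adjusted p = 9.22e-09). Hapln4, a brain link protein, and Acan, the lectican aggrecan, were also called higher, at means of 3.73 and 1.30 FPKM in the ferret and 1.07 and 0.00756 FPKM in the mouse. Acan was not tested, and so not called, when the filter was a mean of at least 1 FPKM over the 4 libraries. Habp4 was not called, with a log2 difference of -0.77. Hapln1 and Hapln4 thus stood in opposite order in the 2 species.

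The heavy chain genes Itih2 and Itih3 are listed at 0 in both ferret libraries. Itih2 had 23.9 and 23.3 FPKM and Itih3 had 5.16 and 5.05 FPKM in the mouse libraries. Both were called, although no fold can be given against values listed at 0. Itih5 was at 17.0 and 17.1 FPKM in the ferret and 19.1 and 20.2 FPKM in the mouse libraries and was not called, and its difference of -0.19 turned to 0.18 after rescaling. Of the proteins that join CD44 to actin, Msn (moesin) had 62.9 and 71.1 FPKM in the ferret and 216 and 219 FPKM in the mouse libraries and was called. Ezr (ezrin), at 215 and 231 FPKM in the ferret and 253 and 267 FPKM in the mouse libraries, and Rdx (radixin), at 72.0 and 68.3 FPKM and 40.1 and 40.3 FPKM, were not called with FPKM as deposited. Nf2, which encodes merlin and restrains CD44 signalling, was called, with a log2 difference of -1.13 that was -0.76 after rescaling.

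**Figure D4:**
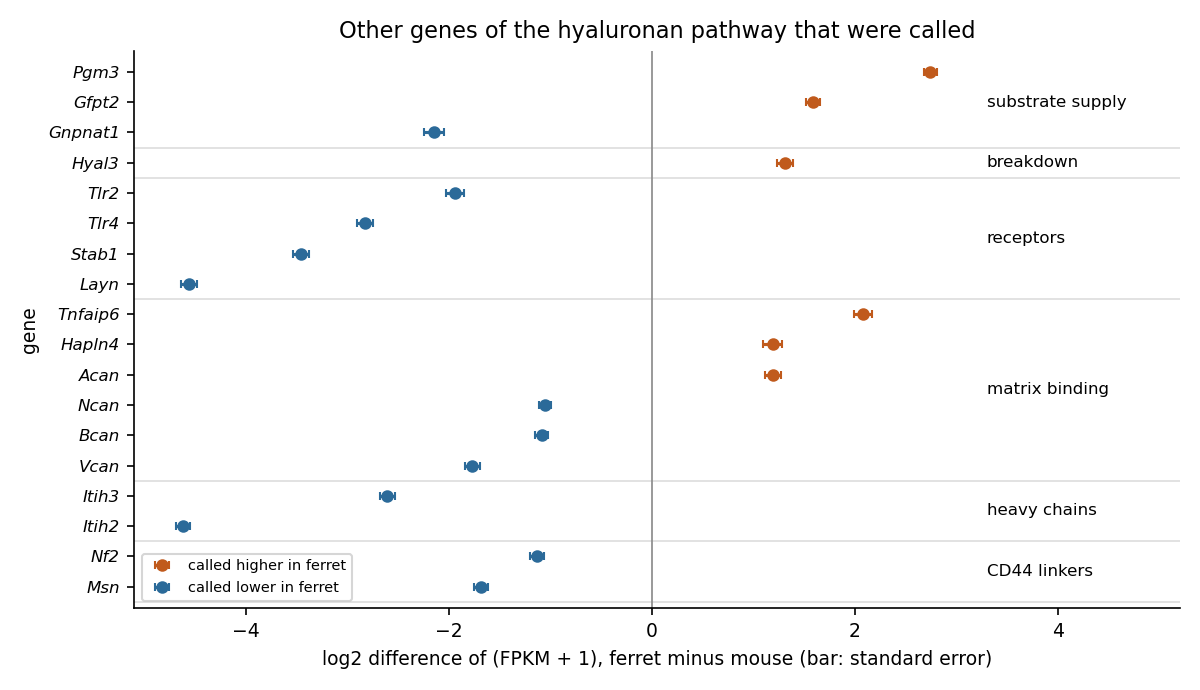
Difference between ferret and mouse astrocytes (horizontal axis, log2 of FPKM + 1, ferret minus mouse, bar for the standard error) for the 18 other pathway genes that were called, in groups by role. Orange points were called higher and blue points lower in ferret astrocytes, with Pgm3 at 2.74 and Layn at -4.56. Itih2 and Itih3 are listed at 0 in the ferret, so their places are set by the pseudocount.

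Because Hmmr is also a gene of dividing cells, it was set beside 22 mitotic genes, of which 15 had a value in both species and all 15 passed the filter. Of these, 12 had a positive and 3 a negative log2 difference, with a median of 0.55 beside -0.35 for all genes, of which 3875 of 10204 had a positive difference. Aurka and Cenpf were called higher and Cdk1 lower, against 13.1% higher and 30.1% lower of all genes, and 6 were called higher once all libraries had the same sum. Tpx2, whose protein works with HMMR on the spindle, had 10.3 and 10.7 FPKM in the ferret and 6.27 and 5.75 FPKM in the mouse libraries (log2 difference 0.72, standard error 0.073, limma adjusted p = 7.24e-06). Top2a, a topoisomerase of dividing cells, had a log2 difference of 0.29. Cdk1, the kinase that drives entry into mitosis, had 5.95 and 5.88 FPKM in the ferret and 27.9 and 25.6 FPKM in the mouse libraries (log2 difference -2.00). Mki67 and Ccnb1 had means of 3.97 and 5.06 FPKM in the mouse, and their ferret levels were not analysed here. The difference of Hmmr thus lay near the median of the mitotic genes.

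Summed markers of microglia, meningeal fibroblasts, mural cells and endothelial cells were higher in both mouse libraries. Sums here cover the markers with a value in both species, and counts of calls cover the markers that passed the filter, beside 13.1% called higher and 30.1% called lower of all genes. A marker that passed the filter through 1 species alone had to be higher there, which held for 8 microglial, 3 meningeal fibroblast and 2 endothelial markers in the mouse, and for 3 neuronal, 2 oligodendrocyte lineage and 1 mural marker in the ferret. Of the microglial markers, 9 of 10 were in both species, all 9 were tested and called lower in the ferret (C1qc alone had at least 1 FPKM in both), with sums of 3.97 and 2.77 FPKM in the ferret and 531 and 516 FPKM in the mouse libraries. Among these 9 the most abundant was Tyrobp in the mouse, at 146 FPKM, and C1qc in the ferret, at 1.00 FPKM, and Cx3cr1 is listed at 0 in the ferret. Of 10 meningeal fibroblast markers, 9 were tested and 8 called lower, 3 of them through the mouse level alone, with sums of 130 and 115 FPKM in the ferret and 945 and 913 FPKM in the mouse libraries. Pdgfra, the other one tested, went the opposite way, at 3.07 and 3.23 FPKM in the ferret and 1.64 and 1.23 FPKM in the mouse libraries. Its log2 difference was 0.77, not called with FPKM as deposited, and was 1.04 after rescaling. Col1a2 led that list in the ferret, at 79.6 FPKM, and Col3a1 in the mouse, at 388 FPKM, while Slc6a13 is listed at 0 in the mouse. Cemip, Hapln1, Cd44, Layn, Stab1, Tlr2, Tlr4, Itih2 and Vcan were higher in the same mouse libraries, and the part of these cell types in their levels was not tested.

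The mural list summed to 43.1 and 40.0 FPKM in the ferret, against 254 and 269 FPKM in the mouse libraries. Acta2 led it at means of 21.6 and 230 FPKM, and so made up most of the mouse sum. Rgs5 is listed at 0 in the ferret and was also low in the mouse, at 0.588 FPKM. Of 5 genes tested, 1 was called higher and 2 lower in the ferret. Kcnj8 was the higher call, at means of 11.5 FPKM in the ferret and 0.0186 FPKM in the mouse. Pdgfrb was called lower, as was Acta2, at means of 4.48 and 23.6 FPKM. Endothelial markers summed to 0.596 and 0.526 FPKM in the ferret, led by Flt1, while they reached 26.8 and 27.4 FPKM in the mouse libraries. Of 7 endothelial markers 2 were tested, both through their mouse level alone, and called lower in the ferret. Of the mouse sum, 22.2 FPKM was Cdh5, while the defining markers Pecam1 and Cldn5 were at 0.0360 and 0 FPKM. The 8 oligodendrocyte lineage markers in both species, led by Cnp, summed to 166 and 185 FPKM in the ferret, against 67.4 and 67.7 FPKM in the mouse libraries, and 3 of 7 tested were called higher in the ferret. The ninth, Olig1, was read in the mouse alone, at 107 and 117 FPKM, and with it the mouse sums were 175 and 185 FPKM, so no direction is given for this list. Cemip2, Has3, Tnfaip6 and Pgm3 were higher in the ferret libraries, where the 3 called markers were also higher, and the part of this lineage in their levels was not tested. The 8 neuronal markers in both species, led by Map2, summed to 32.7 and 33.8 FPKM in the ferret and 32.6 and 33.7 FPKM in the mouse libraries, and 4 of 5 tested were called higher in the ferret, 3 of them through the ferret level alone. Stmn2, another of the list, was read in the mouse alone, at 124 and 127 FPKM, so no direction is given for this list either.

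**Figure D5:**
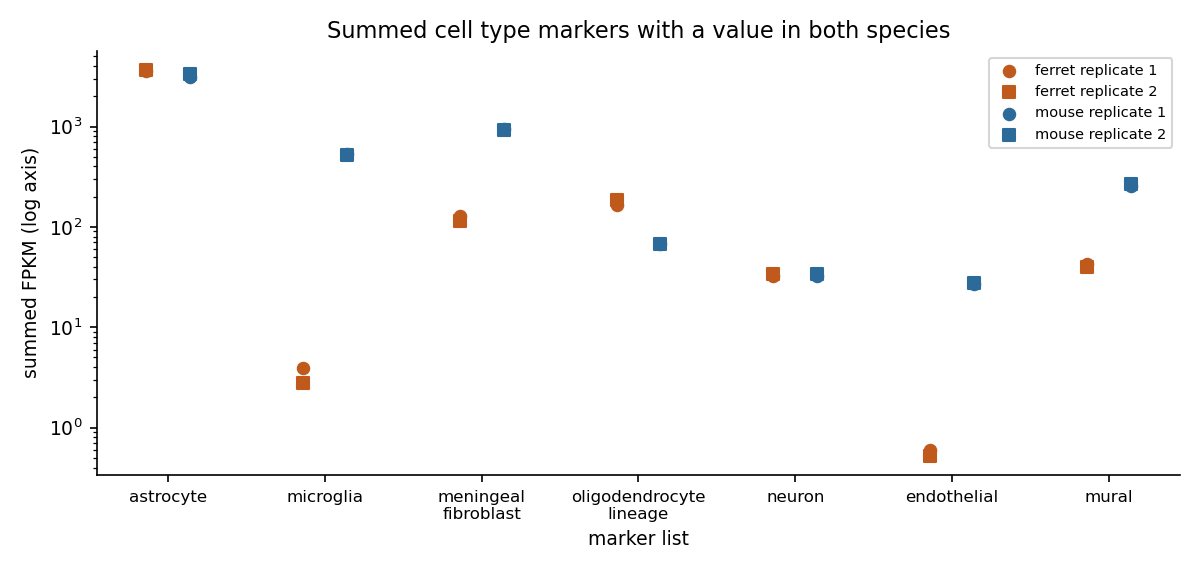
Summed FPKM of 7 lists of cell type markers (vertical axis, log scale), counting markers with a value in both species, with a point for each of the 2 ferret (orange) and 2 mouse (blue) libraries. Microglial, meningeal fibroblast, endothelial and mural sums are higher in both mouse libraries, while Olig1 and Stmn2, read in the mouse alone at over 100 FPKM, are not in the oligodendrocyte lineage and neuronal sums.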

How the data were processed

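Total RNA of cultured astrocytes was made into stranded, polyA-selected libraries. The authors mapped ferret reads to MusPutFur1.0 and mouse reads to GRCm38 (Ensembl release 99) with STAR 2.7.0f and quantified genes with Cufflinks 2.2.1. The deposited FPKM values are scaled by the authors to the mapped fragments of each library and to exon length. Read counts listed with the study were not used here, and the FPKM columns show only the ratio of depths within a species: the commonest step between low values of the second over the first library was 1.17 in ferret and 0.834 in mouse. No counting interval is therefore given for low values.

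Symbols were matched in upper case, and where a symbol had several rows the one with the highest species mean was used. No hyaluronan gene had several rows, so no measured value chose a row. The genes and lists were chosen with earlier results of these data known. log2(FPKM + 1) was compared with limma 3.58.1 (R 4.3.3, trended empirical Bayes) for genes with a mean of at least 1 FPKM in a species, and without this filter for the values of single hyaluronan genes. On simulated data for 10204 genes, 200 of 200 genes changed by a log2 value of 1.5 were called, and 1 unchanged gene. The simulated noise was normal, with a spread smoothed over genes of similar level. It held no shift of scaling or annotation between the species, so it gives no error rate for the real calls. An exact permutation test of 2 against 2 libraries cannot go below p = 0.333. Named genes were the 10 hyaluronan genes, the 10 called pathway genes with the largest differences, pathway genes not called with at least 10 FPKM in both species, 5 mitotic genes, the most abundant gene of each marker list, and the 3 genes nearest to Has2, Cemip and Cd44. Of these, 1 pathway gene is not reported here. Other genes named in the text were chosen after their values were seen. Lists came from textbook knowledge, and Cspg4 is in both the oligodendrocyte and the mural list. Alternatives were another pseudocount, other filters, 3 other scalings, a replicate block, other rules for repeated symbols and each library left out in turn. Mouse positions are those of GENCODE M21 on GRCm38, the authors' build in another annotation release. Tables were joined with pandas 2.3.3 in Python 3.11.15.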

Additional observations from a re-analysis of the deposited data

Results flagged for a closer look

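Hyal1 averaged 19.3 FPKM (SD 0.548, n = 2) in mouse astrocytes, a signal outside the comparison between the species, since its ferret level was not analysed here. It lay above Hyal2 in the same libraries (16.4 FPKM, SD 0.747, n = 2), and its gene model overlaps that of Naa80 on the same strand.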

How the results depend on the processing

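The duplicates of a species limit the precision: their median absolute log2 difference was 0.08 in ferret and 0.06 in mouse astrocytes over 10204 genes, and values under 1 FPKM depend on the pseudocount. Genes called higher in the ferret numbered 1336 with FPKM as deposited, 2197 rescaled to a sum of 1000000, 1954 with equal mean sums and 2080 with quantile normalization, and genes called lower 3069, 2536, 2215 and 2082. Hyaluronan genes called higher numbered 1 as deposited and 2 with a pseudocount of 0.1 and under the 3 other scalings, Has3 being added each time. The median difference of the 9 hyaluronan genes turned from -0.17 to 0.21 rescaled to 1000000, to 0.20 rescaled to the mean sum and to 0.23 after quantile normalization, where it was the value of Hyal2. Mitotic genes called numbered 3 as deposited (2 higher) and 8 (7 higher), 7 (6 higher) and 8 (7 higher) under these 3 scalings, and 2 were called lower with a pseudocount of 0.1. With that pseudocount the difference of Cemip was -8.64, of Hapln1 -3.04, of Has3 2.18 and of Has1 -1.57. Without each library in turn, the median of the 9 genes ranged from -0.21 to -0.13, 3 hyaluronan genes, 3 mitotic and 18 other pathway genes were called each time, and 4380 to 4427 of all genes. Has2 ranged from -0.06 to 0.11 and so changed sign. The cause of these shifts was not tested. The replicate numbers come from the labels alone and their deviations did not correlate across species (0.01). A replicate block gave 4414 calls in place of 4405 and the same 3 hyaluronan genes.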
